A study of Mus musculus with 2 samples.

Results

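The genes described here were lncRNAs whose symbols end in Rik, the names that the RIKEN cDNA project gave to full-length mouse transcripts, and that were listed both among the lncRNAs and, under the same symbol, among the known genes. They were kept where the expression level was above an FPKM of 1 in both libraries of neural stem cells (NSCs), where FPKM counts fragments per unit of transcript length and per unit of mapped fragments. Of 521 RIKEN-named entries found in both lists, 81 (15.5%) passed. These 81 made up 28.3% of the 286 lncRNAs above FPKM 1 in both libraries, out of 8714 lncRNAs in all, while the known genes numbered 23257. The level chose the genes, so their levels are given as a description and none was tested.

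The study measured poly(A)+ RNA by paired-end RNA-Seq in cultured mouse NSCs, the dividing progenitors of neurons and glia. The cells came from the cerebral cortex of embryonic CD-1 mice and were grown as monolayers with the growth factors EGF and FGF. There was 1 condition with 2 replicates, which the study calls biological. How far they were separate cultures or animals is not given in the sources used here, and any spread quoted is that between these libraries. All 10 NSC and radial glia markers examined were above FPKM 1 in both libraries, with a median of 44.1. All 6 microglial markers had 0.1, below which no value was listed, and 0 of 5 endothelial and 0 of 4 pericyte and fibroblast markers were above 1. By the methods of the study, lower values were raised to 0.1 for fold calculations, so 0.1 need not be a measured level. Of 8 neuronal markers 5 were above 1, with a median of 2.62, as were 5 of 6 markers of oligodendrocyte precursors and oligodendrocytes (median 2.14) and 4 of 4 astrocyte markers (median 7.19). The part of such cells in the levels below was not tested.

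A long non-coding RNA is a long transcript judged to lack protein-coding potential, but a RIKEN name says nothing of what the RNA does. Some such RNAs are spliced precursors whose introns carry small nucleolar RNAs (snoRNAs), which guide modification of ribosomal RNA, or whose transcripts carry microRNAs. Others start beside a protein-coding gene and run away from it, run antisense across its exons, or were later found to encode a short protein. The genes are therefore grouped below by these features, which the choice did not use.

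Presence among the known genes went with the level at which lncRNAs were listed. Of the 521 entries in both lists 15.5% passed the limit of FPKM 1 in each library, against 0.383% of the 522 RIKEN-named lncRNAs without a known gene of the same symbol. Of these 522, 519 were at 0.1 in both libraries. The 2 exceptions above 1 were 5031420N21Rik, with 11.8 and 14.2 in replicates 1 and 2, and 1700028N14Rik, with 1.64 and 1.45. RIKEN-named known genes absent from the lncRNA list passed more often, 331 of 1438 (23.0%). Over all 842 lncRNAs with a same-symbol known gene, RIKEN-named or not, 15.8% passed, over all lncRNAs 3.28%, and over all known genes 47.7%. The share among RIKEN names in both lists was thus close to that of all lncRNAs in both.

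The lists were not independent measurements of these genes. For 80 of the 81 lncRNAs the FPKM in the lncRNA list equalled that of the known gene to 5 decimals in both libraries. The exception was C330006A16Rik, now Tmem250-ps, with 12.4 and 11.6 as a lncRNA and 15.7 and 14.5 as a known gene, a ratio of 1.27 in replicate 1 and 1.25 in replicate 2. It was above 1 in either list.

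The 81 lncRNAs had a median FPKM of 2.84, the mean of both libraries being taken for each gene, and an interquartile range of 2.04 to 6.64. Only 1 was above 100, 15 lay between 10 and 100, 9 between 5 and 10, 36 between 2 and 5, and 20 between 1 and 2. The summed level of 672 was carried by few genes, with 23.9% in the highest and 40.0% in the 3 highest. By the choice, every gene was above 1, whereas the median of all 521 entries was 0.1.

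**Figure D1:**
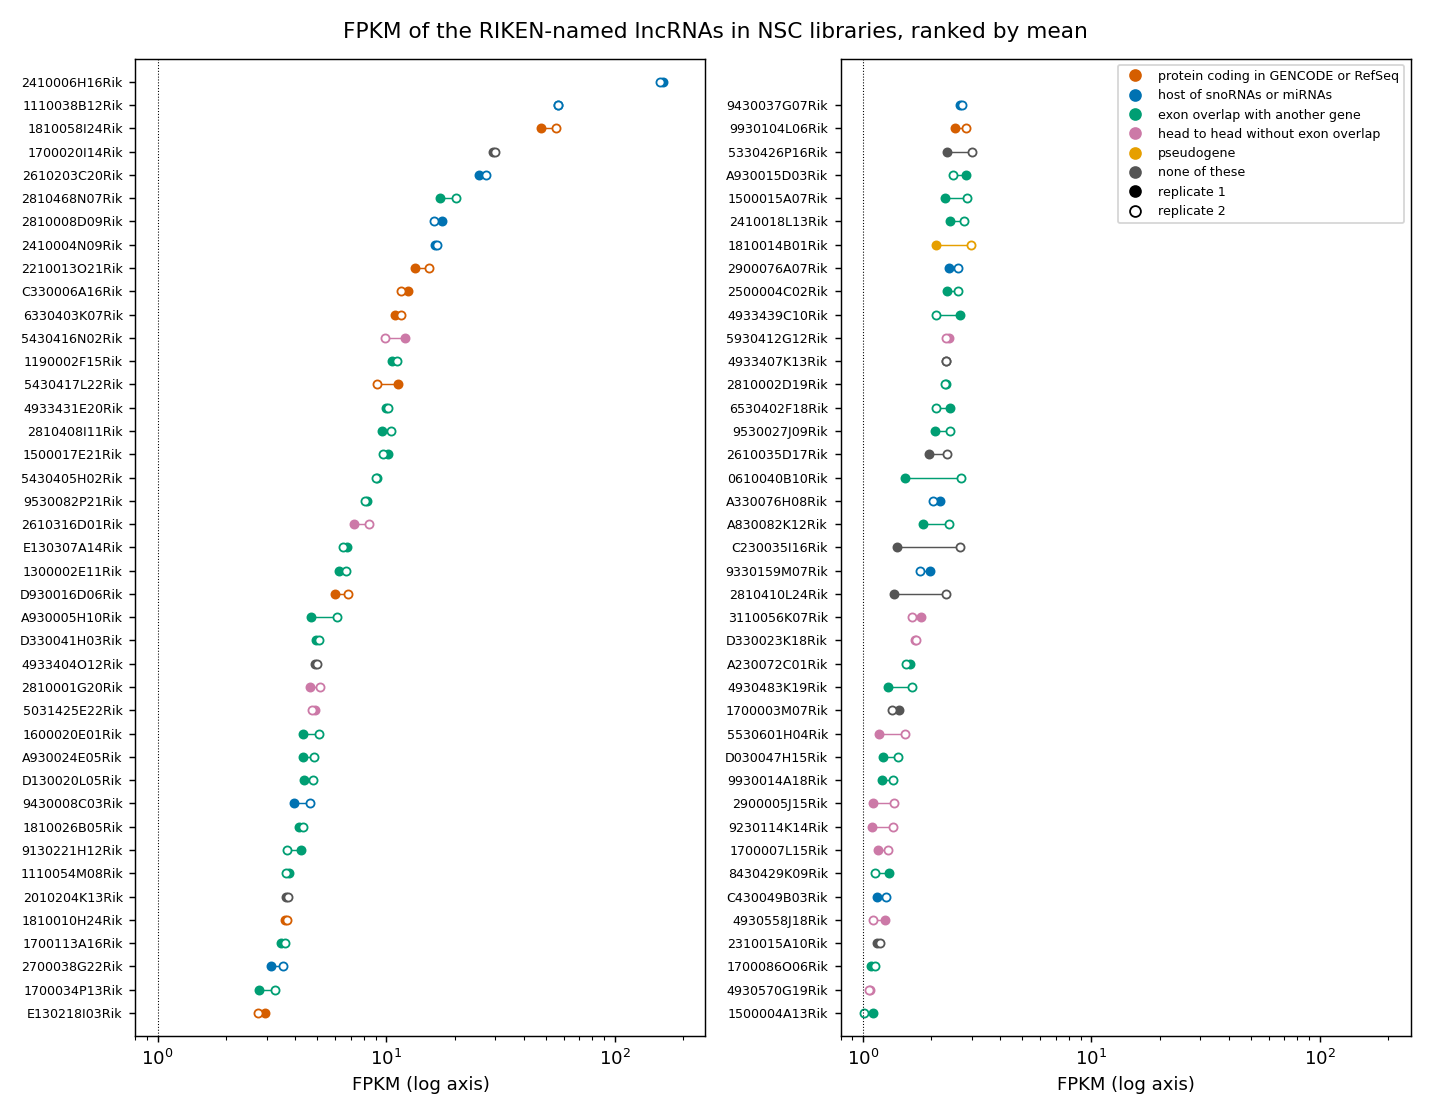
Each row is 1 of the 81 lncRNAs, ranked by mean from the top of the left panel to the foot of the right panel, with its FPKM on a log axis in replicate 1 (filled) and replicate 2 (open). Colours give the annotation group and the dotted line an FPKM of 1; the highest gene, 2410006H16Rik, stood near 160 and the lowest, 1500004A13Rik, just above 1.

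The highest RNA was 2410006H16Rik, with 162 in replicate 1 and 159 in replicate 2. It is a host of the snoRNAs Snord49b, Snord49a and Snord65, and its longest annotated transcript has 462 bases in 5 exons on chromosome 11 of GRCm38 (chr11:62602877-62604807, plus strand). The second, 1110038B12Rik on chromosome 17, which contains Snord52, had 56.6 and 56.4. It was followed by 1810058I24Rik, with 47.8 and 55.7, a gene that RefSeq calls protein coding under the synonym Stmp1, a small mitochondrial membrane protein. These 3 kept their order in each library.

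1700020I14Rik, known as Oip5os1 or Cyrano, had 29.4 and 29.9, and stood alone among the 10 highest in being neither host, overlapping, head to head nor protein coding. Cyrano is a conserved lncRNA known for a site that pairs extensively with miR-7. 2610203C20Rik, now Mir100hg, the host of miR-100, let-7a-2 and miR-125b-1, had 25.6 and 27.3. The next 3 could not be placed in order, as the highest of them in replicate 1 was not the highest in replicate 2. They were 2810468N07Rik, now Cerox1, with 17.3 and 20.2, 2810008D09Rik, now Snhg20, with 17.5 and 16.2, and 2410004N09Rik, now Epb41l4aos, with 16.4 and 16.7. Cerox1 is known in mouse cells as a lncRNA that acts on transcripts of mitochondrial complex I, and Snhg20 is a snoRNA host. 2210013O21Rik, now Nbdy, which encodes a microprotein of the mRNA decapping complex, closed the 10 highest together with C330006A16Rik, with 13.3 and 15.4.

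Just inside the limit of FPKM 1 were 2900005J15Rik (1.10 and 1.36), 9230114K14Rik (1.10 and 1.35), 1700086O06Rik (1.09 and 1.14), 4930570G19Rik (1.07 and 1.06) and 1500004A13Rik (1.10 and 1.02). Just outside were A330093E20Rik (1.16 and 0.9997), 1110015O18Rik (0.973 and 1.37), D130017N08Rik (0.948 and 1.17), C030037D09Rik (0.893 and 1.03) and 4930539J05Rik (0.849 and 1.06). All 5 just outside were above 1 in 1 library, as were 10 of the 440 entries not kept. The limit therefore separated genes whose values differed by less than the libraries did. Of the 440, 299 were at 0.1 in both libraries.

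All 81 lncRNAs could be placed in GENCODE M21, 70 by their symbol and 11 by a later name, and 435 of the 440 others could be placed. They lay on 18 chromosomes, 7 of them on the X. The median of the longest transcript was 2040 bases for the 81 and 1481 for the others, and the median gene span 9894 and 12764 bases. Only 5430417L22Rik had a single exon. Each gene was put in the first group that it met, in the order protein coding, pseudogene, host, exon overlap, head to head, and none of these.

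**Figure D2:**
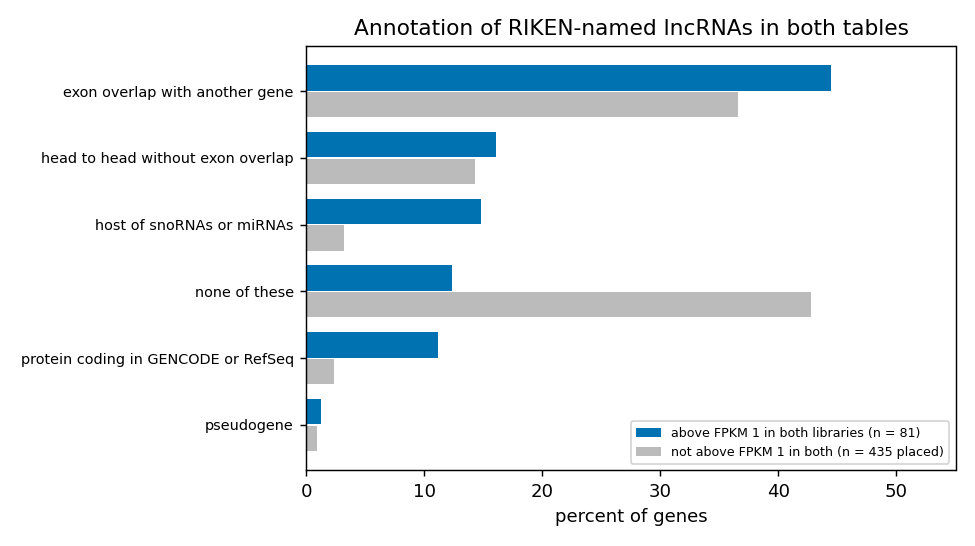
Bars give the percent of genes in each annotation group, for the 81 lncRNAs above FPKM 1 in both libraries (blue) and the 435 other RIKEN-named entries in both lists that could be placed (grey). Hosts made up 14.8% of the first and 3.22% of the second, and genes with none of these features 12.3% and 42.8%.

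The make-up of the 81 differed from that of the others most for hosts, for protein-coding genes and for genes with none of these features. Hosts were 12 of 81 (14.8%) against 14 of 435 (3.22%), and genes annotated as protein coding in GENCODE or RefSeq 9 (11.1%) against 10 (2.30%). The kinds of host differed in this. Genes with snoRNAs were 8 (9.88%) against 1 (0.230%), and genes with microRNAs 5 (6.17%) against 13 (2.99%). Genes with none of these features were 10 (12.3%) against 186 (42.8%). Genes with exon overlap were 36 (44.4%) against 159 (36.6%), the largest group of the 81, and head-to-head genes 13 (16.05%) against 62 (14.3%). There was 1 pseudogene (1.23%), 1810014B01Rik, and 4 (0.920%) among the others. Read the other way, 47.4% of the protein-coding entries and 46.2% of the hosts passed the limit, against 15.5% of all 521, 18.5% of those with exon overlap, 17.3% of the head-to-head group and 5.10% of those with none of these features.

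Levels also varied by group. The median FPKM was 10.2 for the protein-coding genes (2.68 to 51.7), 3.81 for hosts (1.21 to 160), 3.28 for genes with exon overlap (1.06 to 18.7), 2.23 for genes with none of these features (1.17 to 29.7) and 1.70 for the head-to-head group (1.07 to 10.99). The ranges of all groups of more than 1 gene overlapped.

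Among the 81, 8 genes contained snoRNAs and 5 contained microRNAs within their span on the same strand in GENCODE or RefSeq, with Snhg20 in both sets. They held 13 snoRNAs and 9 microRNAs. Most snoRNAs of this kind are of the C/D type, in which the letters TGATGA form the C box and CTGA the D box. The DNA of the snoRNAs in the 2 highest hosts is shown because these genes carried the largest levels. The sequences are from GENCODE M21 on GRCm38 and run 5′ to 3′, with every match to the C box and D box letters in capitals. Snord49b lies at chr11:62603079-62603150, Snord49a at chr11:62603450-62603521 and Snord65 at chr11:62604515-62604586, on the plus strand, and Snord52 at chr17:34950952-34951017 on the minus strand.
Snord49b: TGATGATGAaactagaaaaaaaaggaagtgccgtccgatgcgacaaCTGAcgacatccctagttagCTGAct
Snord49a: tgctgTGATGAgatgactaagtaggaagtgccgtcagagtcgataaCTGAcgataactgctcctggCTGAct
Snord65: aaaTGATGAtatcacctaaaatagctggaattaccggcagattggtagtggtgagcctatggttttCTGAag
Snord52: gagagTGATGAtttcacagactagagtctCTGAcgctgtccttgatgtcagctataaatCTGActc

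The small RNAs themselves were not seen. Of the 22 small RNAs, 12 had an entry of their own among the known genes, 4 snoRNAs and 8 microRNAs, and all 12 were at 0.1 in both libraries, against 162 and 159 for the host of 3 of them. The libraries were selected for poly(A), which mature snoRNAs and microRNAs lack. Whether this or fragment size set these values was not tested, and the host level says nothing here of the level of the small RNA.

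Lower snoRNA hosts were 9430008C03Rik, now Snhg17, with 3.95 and 4.63 and 3 snoRNAs, 2700038G22Rik with Snord93, at 3.13 and 3.54, and 9430037G07Rik with 2.68 and 2.73. 9330159M07Rik, a mouse U50 host gene also called mU50hg-a, had 1.98 and 1.78. The snoRNA hosts thus spanned almost the whole range of levels.

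Of the microRNA hosts, Mir100hg was the highest, at 25.6 and 27.3, and C430049B03Rik on the X chromosome the lowest, at 1.15 and 1.26. Between them lay 2900076A07Rik with Mir1839 (2.40 and 2.62) and A330076H08Rik with Mir344-2 (2.19 and 2.04). The mature microRNAs of the highest and the lowest host are shown because they share a seed (bases 2 to 8, in capitals), which sets target choice. The sequences are those of RefSeq on GRCm38.p6. Mir100hg holds miR-100-5p (chr9:41531437-41531458), let-7a-5p (chr9:41536732-41536753) and miR-125b-5p (chr9:41581940-41581961), all on the plus strand. C430049B03Rik holds miR-351-5p (chrX:53053315-53053338), miR-503-5p (chrX:53054027-53054049) and miR-322-5p (chrX:53054306-53054327), all on the minus strand and inside its RefSeq span.
miR-125b-5p: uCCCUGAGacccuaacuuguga
miR-351-5p: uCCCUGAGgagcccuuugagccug
miR-100-5p: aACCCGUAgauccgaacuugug
let-7a-5p: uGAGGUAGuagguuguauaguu
miR-322-5p: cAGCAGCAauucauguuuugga
miR-503-5p: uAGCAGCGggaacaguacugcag

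The seed of miR-125b-5p from Mir100hg was the same as that of miR-351-5p from C430049B03Rik. Seeds of miR-322-5p and miR-503-5p differ in their last base alone, and those of miR-100-5p and let-7a-5p were shared with none of the others shown. The hosts of the shared seed thus differed widely in level, with 25.6 and 27.3 for Mir100hg against 1.15 and 1.26 for C430049B03Rik.

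Although listed as lncRNAs, 6 of the 81 were protein coding in GENCODE, 8 in RefSeq and 5 in both, 9 in all. The 6 of GENCODE were 7.41% of the 81, and 1.38% of the others. The highest were 1810058I24Rik, Nbdy and C330006A16Rik, whose values are given above, of which only Nbdy was coding in both. 6330403K07Rik on chromosome 11 had 10.9 and 11.6, and 5430417L22Rik, now Inafm2, had 11.3 and 9.12. D930016D06Rik, now Thoc2l, a THO complex subunit 2-like gene, followed with 5.99 and 6.81. The remaining 3 were 1810010H24Rik, with 3.60 and 3.68, E130218I03Rik, coding in GENCODE alone, with 2.94 and 2.74, and 9930104L06Rik, with 2.52 and 2.83. No coding gene was below FPKM 2.

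A head-to-head neighbour, a gene on the other strand that starts within 1 kb upstream of the lncRNA and runs away from it, was found for 21 of 81 (25.9%) and for 84 of the 435 others (19.3%). For 19 of the 21 the neighbour was protein coding. The distance between the starts ran from 2 to 341 bases with a median of 113. The other 2 were 9330159M07Rik and 5430416N02Rik, which had 12.1 and 9.91 and was the highest of the 21.

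Of the 19 coding neighbours, 18 were above FPKM 1 (94.7%), with a median of 14.8 over the 19. Among 69 coding neighbours of the other entries with a value, 54 were above 1 (78.3%) and the median was 8.52. The neighbour was higher than the lncRNA in 18 of the 19 pairs, without overlap between the libraries, with a median ratio of 6.31 and a highest of 57.5. Among the 69 neighbours of the other entries, 57 had the higher mean. The lncRNAs of the 19 pairs had means of only 1.07 to 9.05. Most known genes above FPKM 1 in both libraries, 8230 of 11083, had a mean above 5. Values are scaled to transcript length, by gene models that may differ from those used here. Some lncRNAs of these pairs also share exon bases with a further gene, as 5430405H02Rik does with Tgif2. The libraries do not mark strand, so the ratios are approximate.

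**Figure D3:**
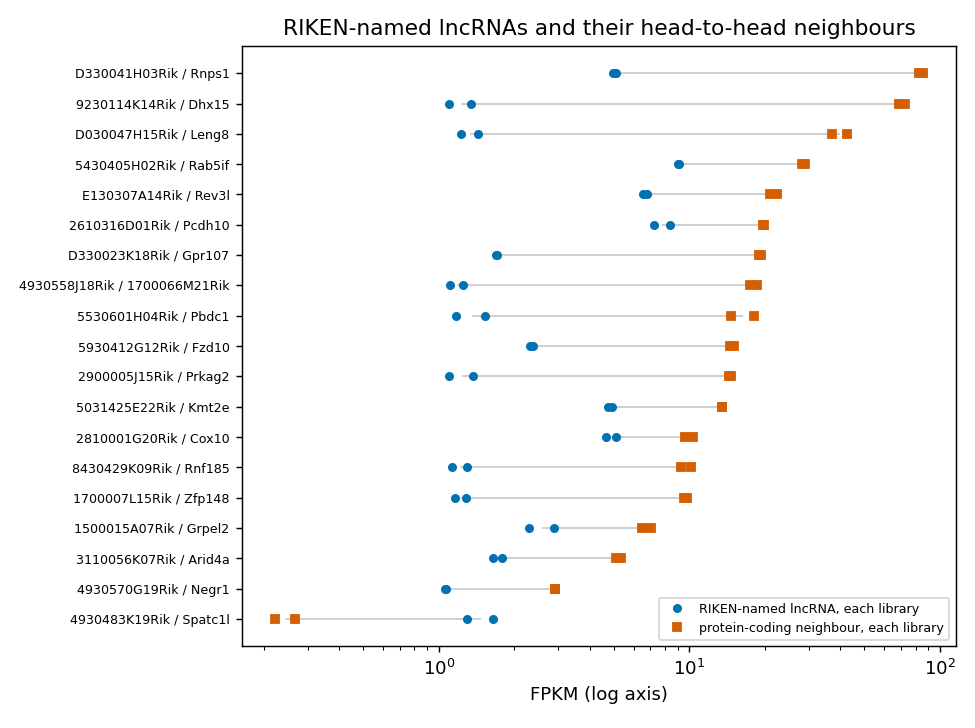
Each row is a pair of a RIKEN-named lncRNA (blue circles, 1 for each library) and the protein-coding gene that starts head to head with it (orange squares), with FPKM on a log axis. The neighbour stood to the right of the lncRNA in 18 of 19 pairs, the exception being 4930483K19Rik and Spatc1l at the foot.

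The highest lncRNA of these pairs, 5430405H02Rik, had 9.08 and 9.02, against 28.2 and 28.9 for Rab5if, listed as 1110008F13Rik. 2610316D01Rik had 7.22 and 8.38, against 19.9 and 19.6 for Pcdh10, a protocadherin of neural cell adhesion. E130307A14Rik had 6.78 and 6.51, against 20.9 and 22.3 for Rev3l, the catalytic subunit of DNA polymerase zeta. In all of these the neighbour was about as far above the lncRNA, at 3.15, 2.53 and 3.25 times its mean. D330041H03Rik had 4.96 and 5.10, against 82.8 and 85.7 for the splicing factor gene Rnps1. 2810001G20Rik had 4.63 and 5.12, against 10.3 and 9.58 for Cox10, an enzyme of heme A synthesis.

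The largest ratio was at 9230114K14Rik, with 1.10 and 1.35, against 68.6 and 72.4 for Dhx15, an RNA helicase of the spliceosome. 5930412G12Rik, now Fzd10os, had 2.39 and 2.32, against 15.1 and 14.5 for Fzd10, a Wnt receptor. The exception to the order was 4930483K19Rik, with 1.29 and 1.64, against 0.222 and 0.268 for Spatc1l. This lncRNA also overlaps exons of Lss, the lanosterol synthase gene, which had 141 and 140. Across the 19 pairs the levels of lncRNA and neighbour gave a Pearson's r of 0.285 and a Spearman's rho of 0.335 on the log2 scale, from the same 2 libraries and with lncRNAs that all passed the limit.

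Promoters were examined in windows of 300 bases, 250 before and 50 after the most upstream RefSeq start. Windows were found for 65 of the 81, for 360 of the other entries and for 27025 genes in all. The median GC content was 60.7% for the 81 and 52.2% for the others, and the ratio of observed to expected CpG 0.782 and 0.383. Windows with a ratio above 0.6 and GC above 50% made up 61.5%, 29.7% and, over all genes of the table, 33.9%. For 8269 known genes that passed the same limit, the 81 left out, the median GC was 61.7%, the CpG ratio 0.796 and the share 75.2%. In these measures the 65 windows were nearer to those of the expressed known genes than to those of the other RIKEN-named entries. Both of the nearer sets were chosen by the limit that the other entries failed. The comparison is therefore one of expressed with less expressed genes, and is a description. Of the head-to-head lncRNAs with a coding neighbour 12 of 14 windows were CpG-rich by this measure (85.7%), against 28 of 51 for the rest of the 81 (54.9%).

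Motif letters were searched on both strands. The GC box, GGGCGG, was in 61.5% of the windows of the 81, 35.6% of the others, 68.3% of expressed known genes and 35.9% of all genes. The ETS letters CCGGAAGT were in 13.8%, 4.44%, 9.13% and 3.99%, and a YY1 motif in 4.62%, 0.278%, 1.85% and 0.699%. Both rest on few windows of the 81, 9 and 3. For CCAAT the shares were 40.0%, 35.3%, 39.9% and 38.02%, and for TATAAA 10.8%, 10%, 6.07% and 14.2%. The E-box letters CAGATG were in 10.8%, 18.1%, 10.6% and 17.3%, and the CRE letters TGACGTCA in 3.08%, 1.94%, 3.46% and 1.85%. The NRF1 motif was in none of the 65 windows, and in 0.556%, 2.36% and 0.981%. A match is only a match of letters.

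Windows are shown for the highest of the 81 and for 2 of the 4 lncRNAs with the ETS letters that start head to head with a protein-coding gene, whose starts lie 25 bases from that of Gpr107 (D330023K18Rik) and 16 bases from that of Cox10 (2810001G20Rik), so that 1 window covers the starts of both genes. They are RefSeq windows on GRCm38.p6, 5′ to 3′ on the strand of the lncRNA, with matches to these motifs in capitals. 2410006H16Rik is at chr11:62602627-62602926 on the plus strand, with the GC box on either strand. D330023K18Rik is at chr2:31152242-31152541 on the minus strand, with the ETS letters. 2810001G20Rik is at chr11:64079234-64079533 on the plus strand, with the YY1 motif, the GC box and the ETS letters in that order.
2410006H16Rik: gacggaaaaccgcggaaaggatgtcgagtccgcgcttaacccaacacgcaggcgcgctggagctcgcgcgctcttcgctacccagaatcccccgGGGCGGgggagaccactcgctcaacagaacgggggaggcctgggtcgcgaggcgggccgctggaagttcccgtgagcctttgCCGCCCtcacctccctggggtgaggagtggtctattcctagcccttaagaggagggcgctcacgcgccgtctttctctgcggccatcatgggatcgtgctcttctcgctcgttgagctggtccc
D330023K18Rik: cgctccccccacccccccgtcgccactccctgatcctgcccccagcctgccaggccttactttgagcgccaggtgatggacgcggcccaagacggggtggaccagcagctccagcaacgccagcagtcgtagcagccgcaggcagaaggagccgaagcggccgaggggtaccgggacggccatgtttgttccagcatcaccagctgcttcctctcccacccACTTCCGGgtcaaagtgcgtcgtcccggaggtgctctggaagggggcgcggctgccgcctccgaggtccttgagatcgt
2810001G20Rik: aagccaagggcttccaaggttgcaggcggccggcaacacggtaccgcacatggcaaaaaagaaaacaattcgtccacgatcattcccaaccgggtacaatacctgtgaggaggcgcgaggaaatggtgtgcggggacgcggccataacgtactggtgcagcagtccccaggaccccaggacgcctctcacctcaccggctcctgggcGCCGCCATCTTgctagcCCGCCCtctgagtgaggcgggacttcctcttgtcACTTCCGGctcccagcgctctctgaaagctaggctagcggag

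D330023K18Rik had 1.69 and 1.71, against 19.4 and 19.0 for Gpr107, and 2810001G20Rik has its values with Cox10 above. Both lncRNAs were therefore lower than the gene that shares their window, by 11.3 and 2.04 times.

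An exon overlapping an exon of another gene was found in 44 of 81 lncRNAs (54.3%) and in 168 of the 435 others (38.6%). In 40 of the 44 the other gene, or 1 of them, lay on the opposite strand, and in 4 on the same strand only. The libraries do not mark strand, so fragments from the shared bases cannot be told apart. The overlapped gene had a value for 36 of the 44. Its median FPKM was 10.2, it was higher than the lncRNA in both libraries in 28 pairs and lower in 8, and in 5 of these 8 its mean was below 1. For the other entries the overlapped gene had a value in 131 cases and the higher mean in 103, a share near that of the 81. Across the 36 pairs the levels of both gave a Pearson's r of -0.05 and a Spearman's rho of -0.02 on the log2 scale, from the same 2 libraries. The median of the 81 was 2.93 with overlap and 2.67 without.

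Some genes placed in earlier groups also have exon overlap, among them Mir100hg, which was higher than any gene in the exon overlap group itself. The highest in that group was Cerox1, which shares 329 bases with Sox8, a transcription factor gene of glial lineages, on the other strand. Cerox1 had 17.3 and 20.2, against 54.4 and 54.2 for Sox8. 1190002F15Rik, now Lockd, a lncRNA next to the cell cycle inhibitor gene Cdkn1b, had 10.7 and 11.1. The gene it overlaps had no value. 4933431E20Rik had 9.99 and 10.2 although Eps8l3, with which it shares 964 bases, was at 0.1 in both libraries. 2810408I11Rik had 9.60 and 10.6, against 15.5 and 16.3 for Ccnyl1, a cyclin Y-like gene.

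1500017E21Rik, now Hectd2os, had 10.2 and 9.68, against 8.38 and 8.54 for Hectd2, a ubiquitin ligase gene with which it shares 1834 bases. It was 1 of 8 that stood above the overlapped gene in both libraries. The others were 4933431E20Rik, E130307A14Rik above Traf3ip2, 1300002E11Rik above Map3k13, 1110054M08Rik (now Lppos) above Lpp, A930015D03Rik above H2-T22, 1500015A07Rik above Afap1l1 and 9330159M07Rik above Trim43c. At the other end, 4930483K19Rik stood furthest below the overlapped gene, Lss, which was 95.4 times higher. 1810014B01Rik, with 2.09 and 2.98, shares 415 bases with Hsp90b1, a chaperone gene of the endoplasmic reticulum, which had 130 and 144. 1810026B05Rik, now Chaserr, a lncRNA known in mice to restrain its neighbour Chd2, had 4.14 and 4.32, against 8.62 and 9.04 for Chd2, with which it shares 2628 bases on the same strand.

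The 10 lncRNAs with none of these features were led by Cyrano. 4933404O12Rik had 4.89 and 4.96, 2010204K13Rik on the X 3.63 and 3.70, and 5330426P16Rik, now Dubr, 2.34 and 2.99. The nearest coding gene of Dubr, Ccdc54, lay 128140 bases away and was at 0.1 in both libraries. 4933407K13Rik, which RefSeq also calls Dxz4, a macrosatellite locus of the X chromosome known for organising the inactive X, had 2.31 and 2.32. The remaining 5, 2610035D17Rik, C230035I16Rik, 2810410L24Rik, 1700003M07Rik and 2310015A10Rik, had means between 1.17 and 2.15.

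Both libraries ranked the 81 lncRNAs alike (Pearson's r = 0.989 on the log2 scale, Spearman's rho = 0.970, across genes of the same 2 libraries). The median difference between the libraries was 0.14 on the log2 scale with 0.1 added to each FPKM, that is 1.10-fold. It was 0.13 for the 205 other lncRNAs above FPKM 1, and 0.08 for the 11083 known genes above FPKM 1. At means of 1 to 2 it was 0.14 for 20 of the 81 and 0.11 for 843 known genes. Above a mean of FPKM 5 it was 0.09 for 25 of the 81 and 0.07 for 8230 known genes. The difference was thus smaller at the higher level in both sets, and slightly wider for the lncRNAs at either level. The known genes here include the 81, and the range above 5 has no upper limit, so levels within it were not matched. Of the 81, 53 were higher in replicate 2 (65.4%), as were 58.5% of the 205 other lncRNAs and 56.2% of the known genes.

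**Figure D4:**
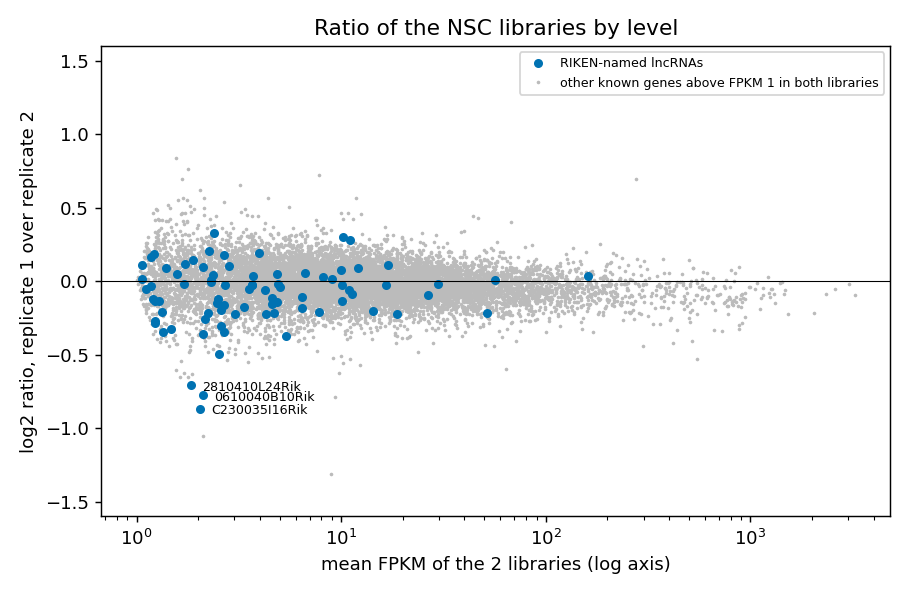
The log2 ratio of replicate 1 over replicate 2 is plotted against the mean FPKM (log axis) for the 81 lncRNAs (blue) and for other known genes above FPKM 1 in both libraries (grey), with 4 known genes beyond the vertical axis. The 3 named lncRNAs, all near FPKM 2, lie lowest, and no lncRNA above FPKM 5 differed by more than 1.5-fold.

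Differences over 1.5-fold were seen for 3 of the 81 (3.70%), compared with 3.15% of all lncRNAs and 0.244% of all known genes above FPKM 1 in both libraries, so the share was near that of lncRNAs at large. They were C230035I16Rik (1.42 and 2.67), 0610040B10Rik (1.54 and 2.70) and 2810410L24Rik (1.37 and 2.31). All 3 were higher in replicate 2. The next were 1810014B01Rik (2.09 and 2.98) and A930005H10Rik (4.68 and 6.08), at 1.43-fold and 1.299-fold. 0610040B10Rik, whose longest transcript has 1643 bases, shares only 10 bases with exons of Zdhhc4, which had 20.9 and 20.8.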

How the data were processed

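RNA-Seq libraries from 2 replicates of mouse NSCs were used. Per the labels and the methods of the study, reads were aligned to mm10 with TopHat2 2.0.11 and Bowtie2 2.2.2, and the authors computed FPKM with Cufflinks 1.3.0 against UCSC known genes joined with a lncRNA catalogue. The deposited FPKM have no value below 0.1. No counts were used, so depth is unknown, no counting interval can be given, and the libraries alone give the precision. The TruSeq libraries do not mark strand.

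The genes and lists were chosen with earlier results of these data known. Named genes were the 10 highest, the 5 with the largest library ratio, those that differed between the lists, 5 on either side of the limit, the 5 highest of each annotation group, RIKEN genes named in the study, and their neighbours. The RIKEN gene in the study's text, 5330416C01Rik, was not among the genes kept and is therefore not described. A few more pairs with the widest or reversed ratio were named after their values were seen. Places, types, exons and small RNAs came from GENCODE M21 and RefSeq GRCm38.p6, the assembly of mm10, whose gene models may differ from those of the authors. With 1 condition no test was made. Log2 ratios used a pseudocount of 0.1. Functions were tested on simulated data. Python 3.11.15, pandas 2.3.3, NumPy 2.4.6, SciPy 1.17.1 and matplotlib 3.10.9 were used. Alternatives were other limits on FPKM, either library alone, other pseudocounts, distances, strands and annotations.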

Additional observations from a re-analysis of the deposited data

How the results depend on the processing

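The limit on FPKM decided most values. With a limit of 0.1 in both libraries 202 lncRNAs were kept and with a limit of 5, 23, and the median FPKM was 0.698 and 10.99. The number with the same value in both lists was then 199 and 22, with a head-to-head neighbour 52 and 4, and with exon overlap 115 and 12. At the limit of 5 the protein-coding genes were 3, and at 0.1 the median difference between libraries was 0.21 (log2). With a mean above 1 the median FPKM was 2.69, below the 2.84 given above by more than the SD of the library medians, 0.120. With either library alone, 83 to 89 lncRNAs were kept, with medians of 2.76 to 2.78, and 82 to 88 had the same value in both lists, 6 to 7 were protein coding, 21 to 22 had a head-to-head neighbour and 45 to 48 an overlap. The difference between libraries has no value with 1 library. The remaining alternatives stayed within 1.5 times, among them RefSeq types (8 coding), starts within 300 bases (20) or 5 kb (23), overlap on the other strand only (40), and pseudocounts of 1 (0.10) and 0 (0.14). The limit applied to the known gene values, an alternative chosen after seeing the data, kept 83. No paired analysis was possible because there was only 1 condition.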

Other observations

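Beyond the 81 lncRNAs, 11 of the 440 other RIKEN-named entries in both lists had another value as a lncRNA than as a known gene, and 9 of these were at 0.1 in both libraries as lncRNAs. C630043F03Rik was at 0.1 as a lncRNA, with 3.07 and 3.16 in replicates 1 and 2 as a known gene, and C030034I22Rik was at 0.1 with 1.68 and 1.44. These 2 would have passed the limit by their known gene values. For 9130024F11Rik the lncRNA values were 0.284 and 0.321 and the known gene values 0.661 and 0.711, while 2810429I04Rik was higher as a lncRNA, with 0.595 and 0.562 against 0.447 and 0.424. The symbols 4930556M19Rik and A530058N18Rik name 2 lncRNA entries each, neither among the 81.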
